A study of Mus musculus with 6 samples.

Results

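The mRNA levels of 10 genes of iron uptake, storage and sensing were measured by RNA-seq in fetal liver (FL) cells. The cells came from wt and hnRNP L deficient embryos, and hnRNP L is an RNA-binding protein that regulates splicing. The genes were chosen by symbol and matched to their Ensembl identifiers in the gene counts, which list 38293 genes. All 10 were found, all 10 passed the filter on low counts, and they are among the 14396 genes that were tested. The embryos were C57BL/6 mice at embryonic day 14.5, and each library came from a single embryo. The 3 wt libraries are labeled wild-type for hnRNP L, and the study also denotes its wt RNA-seq samples as L fl/fl, with floxed alleles. The 3 hnRNP L deficient libraries are VavCre+ hnRNP L fl/fl, in which Cre under the Vav promoter is meant to remove the floxed alleles in hematopoietic cells. For the RNA-seq samples, Cre is named only in the hnRNP L deficient group. The labels name the source as fetal liver and the tissue as whole embryo, whereas the methods of the study describe sorted Lin-cKit+ FL cells, a fraction rich in stem and progenitor cells. Exon bin counts came from 5 libraries, and for hnRNP L deficient replicate 1 such counts were not analysed here.

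Iron travels in the blood bound to transferrin, the product of Trf, which is made mainly by hepatocytes. Erythroid progenitors take it up through the transferrin receptor Tfrc, reduce it in the endosome with Steap3, pass it to the cytosol through Slc11a2 and import it into mitochondria through Slc25a37 for heme synthesis. Iron that is not used is stored in ferritin, a shell of heavy chains (Fth1) and light chains (Ftl1). The iron regulatory proteins, encoded by Aco1 and Ireb2, sense iron and bind a hairpin in mRNA, the iron-responsive element. When iron is scarce, their binding near the start of the ferritin mRNAs blocks translation, and their binding in the 3′ UTR of Tfrc mRNA protects it from decay. Fetal liver at this stage is the main site of red cell formation.

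The iron-responsive elements are shown first, because through them Tfrc and ferritin are known to be regulated in opposite directions. They were searched for on the transcribed strand of the untranslated regions in GENCODE M21 (GRCm38), as a bulged C, any 5 bases, the loop CAGTGN and 5 bases that pair with the first 5, G with T pairs included. Of the 12437 tested genes with an untranslated region, 47.8% held these letters in any pairing and 0.973% held them with a fully paired stem. Of the iron genes, 7 held the letters and 3 the paired stem. Capitals mark the bulged C and the loop, and all sequences run 5′ to 3′.
Fth1, 5′ UTR, chr19:9982733-9982760, plus strand: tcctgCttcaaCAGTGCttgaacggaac
Ftl1, 5′ UTR, chr7:45459779-45459806, minus strand: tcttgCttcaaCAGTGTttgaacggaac
Tfrc, 3′ UTR, chr16:32631220-32631247, plus strand: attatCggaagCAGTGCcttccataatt
Tfrc, 3′ UTR, chr16:32631599-32631626, plus strand: attatCgggagCAGTGTcttccataatg
Tfrc, 3′ UTR, chr16:32631664-32631691, plus strand: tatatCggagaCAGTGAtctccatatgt
Tfrc, 3′ UTR, chr16:32631711-32631738, plus strand: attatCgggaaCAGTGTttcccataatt
Each ferritin mRNA held 1 such hairpin and Tfrc mRNA held 4, at the ends of the mRNA known for them.

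The libraries held 55952160 to 76157226 reads on genes, and 3 reads corresponded to at most 0.0536 CPM, the counts scaled to a common library size. The deleted gene was checked first. Hnrnpl stood at 552, 531 and 528 CPM in the wt libraries (replicates 1 to 3, the order used throughout) and at 242, 288 and 270 CPM in the hnRNP L deficient ones, a log2 fold change of -1.01 (SE 0.0880, adjusted p = 0.0072, edgeR's quasi-likelihood test with Benjamini-Hochberg adjustment). Hnrnpl mRNA was thus reduced but not absent. The study raises the possibility that incompletely deleted cells with residual protein remained and made splicing events hard to detect. Markers of the erythroid lineage summed to between 2394 and 2627 CPM in wt and between 2251 and 2999 CPM in hnRNP L deficient libraries. Of the antigens that the sort removes, Cd3e, Cd8a, Ly6g and Klrb1c were at or near 0 in every library. Ptprc, which encodes B220 among other forms of CD45, had 34.2, 113 and 48.8 CPM in wt. It had 11.04, 17.5 and 17.3 CPM in hnRNP L deficient libraries and was lower (adjusted p = 0.038, edgeR). Itgam reached 47.4 CPM in wt replicate 2. It encodes CD11b, against which the study's lineage cocktail for FL cells held no antibody. The libraries were not alike in other cells. Markers of granulocyte precursors summed to 7896 CPM in wt replicate 2 and to at most 1431 CPM in any other library. Macrophage markers summed to between 27.2 and 109 CPM in wt and between 8.36 and 16.3 CPM in hnRNP L deficient libraries. Endothelial markers summed to between 17.9 and 46.5 CPM in wt and between 7.56 and 8.98 CPM in hnRNP L deficient libraries. Hepatocyte markers are given below beside Trf. Kit, the antigen by which the cells were sorted, was lower in the hnRNP L deficient libraries (log2 fold change -0.62, SE 0.162, adjusted p = 0.040, edgeR). All 7 early progenitor markers had negative log2 fold changes, and 4 passed, where 9.85% of all tested genes were called lower. Besides Kit these were Flt3 (-3.35, adjusted p = 0.0099), Cd34 (-2.21, 0.017) and Meis1 (-1.07, 0.014, all edgeR). In RNA from many cells, fewer cells of a type and less RNA per cell cannot be told apart.

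Of the 10 iron genes, 1 passed the test (Trf, lower in hnRNP L deficient cells) and 0 were higher, against a background of 19.2% of all tested genes called, 9.32% higher and 9.85% lower. By unadjusted p under 0.05, Trf and Ftl1 passed, as did at least the 19.2% of all tested genes that passed after adjustment. DESeq2 called 1 higher and 1 lower, against 27% of all genes it tested. For limma-voom it was 1 higher and 2 lower, against 37.2%. The 3 libraries of one genotype did not overlap the 3 of the other for 2 of the 10 genes, Trf and Ftl1, whereas 45.5% of all tested genes were without overlap. With a change of more than 2-fold required as well, the count was again 1 (Trf), against 6.72% of all tested genes. Their median log2 fold change was 0.03, and that of all tested genes was -0.03. The higher gene was Ftl1 in both, and the lower genes were Trf and, with limma-voom, Aco1. The other 7 genes did not pass in any alternative, and the intervals below give the differences that remain possible.

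**Figure D1:**
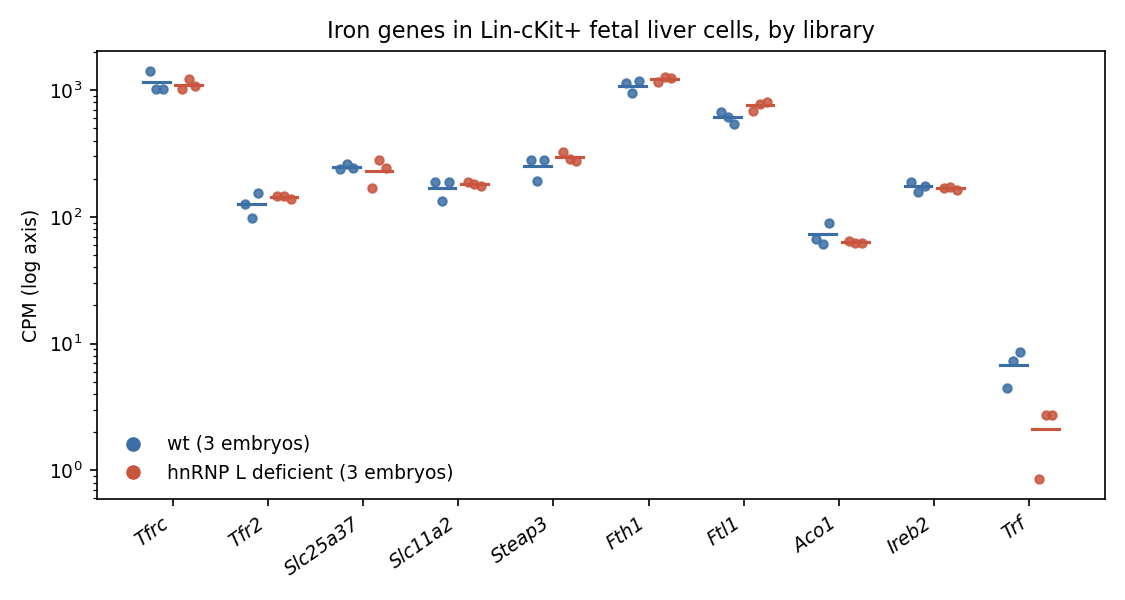
CPM on a log axis of the 10 iron genes in each library, with 3 wt embryos (blue) and 3 hnRNP L deficient embryos (red). Each point is a library and each bar the mean of a group. The groups overlap for every gene but Ftl1, which is higher, and Trf, which is lower in the hnRNP L deficient libraries.

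The levels of the genes in wt cells spanned a wide range. Per kilobase of exon, which allows genes to be compared, Fth1 was the highest at 697 ± 77.5 CPM per kb (SD, n = 3), above 99.6% of all tested genes. Ftl1 followed at 631 ± 69.6 CPM per kb, and the wt ranges of both ferritin chains overlapped. Tfrc had 221 ± 43.9 CPM per kb, and Slc25a37 59.3 ± 3.30 CPM per kb. Steap3 (44.6 ± 9.36 CPM per kb), Tfr2 (38.0 ± 8.61 CPM per kb), Ireb2 (30.3 ± 2.68 CPM per kb) and Slc11a2 (29.6 ± 5.49 CPM per kb) each overlapped the next gene in the order. For Slc11a2 that next gene was Aco1 at 19.0 ± 3.82 CPM per kb. Trf was the lowest at 2.45 ± 0.760 CPM per kb, above 34.6% of tested genes. Both ferritin chains and Tfrc were thus above at least 98.4% of all tested genes, and the gene of transferrin stood below the other 9 in every library.

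Tfrc (ENSMUSG00000022797, chromosome 16, 32608920 to 32632794), the receptor that internalizes iron-loaded transferrin, had 1414, 1024 and 1014 CPM in wt. The hnRNP L deficient libraries had 1022, 1218 and 1085 CPM. The values of both genotypes were interspersed, with wt replicate 1 above all others. The log2 fold change was -0.05 (SE 0.149, 95% interval -0.41 to 0.30, adjusted p = 0.82, edgeR), so that a change of -24.5% to 22.9% remained possible.

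Tfr2 (ENSMUSG00000029716, chromosome 5, 137569840 to 137587481), the second transferrin receptor, which also takes part in iron sensing and associates with the erythropoietin receptor, had 126, 97.4 and 155 CPM in wt and 146, 145 and 139 CPM in hnRNP L deficient libraries. The 3 hnRNP L deficient values lay close together and inside the wt range. On the log2 scale the change was 0.19 (95% interval -0.18 to 0.56, adjusted p = 0.41, edgeR).

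Steap3 (ENSMUSG00000026389, chromosome 1, 120190757 to 120272705) encodes the ferrireductase of the endosome and is also known as a gene that p53 induces. Its levels were 283, 191 and 282 CPM in wt and 325, 285 and 276 CPM in hnRNP L deficient libraries. The groups overlapped through wt replicates 1 and 3. The log2 fold change was 0.23 (95% interval -0.15 to 0.61, adjusted p = 0.33, edgeR). It was 0.07 without wt replicate 2, the library with the high granulocyte markers.

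Slc11a2 (ENSMUSG00000023030, chromosome 15, 100387898 to 100425072), which carries ferrous iron out of the endosome, had 188, 133 and 188 CPM in wt and 190, 182 and 176 CPM in hnRNP L deficient libraries. Again wt replicate 2 was the lowest and the other 5 libraries were close to each other. The difference was 0.11 on the log2 scale (95% interval -0.21 to 0.43, adjusted p = 0.59, edgeR).

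Slc25a37 (ENSMUSG00000034248, chromosome 14, 69241848 to 69285112), also called mitoferrin, imports iron into the mitochondria of erythroid cells. It had 238, 263 and 242 CPM in wt and 169, 283 and 245 CPM in hnRNP L deficient libraries, where replicate 1 was the lowest and replicate 2 the highest of all 6. On the log2 scale the difference was -0.09 (95% interval -0.51 to 0.32, adjusted p = 0.74, edgeR). It was 0.10 without hnRNP L deficient replicate 1.

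Fth1 (ENSMUSG00000024661, chromosome 19, 9980598 to 9985098), the heavy chain of ferritin, which oxidizes iron for storage, had 1135, 948 and 1174 CPM in wt. The hnRNP L deficient libraries had 1166, 1274 and 1248 CPM. The groups overlapped, since wt replicate 3 lay above hnRNP L deficient replicate 1. Their difference was 0.18 on the log2 scale (SE 0.103, 95% interval -0.06 to 0.42, adjusted p = 0.24, edgeR).

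Ftl1 (ENSMUSG00000050708, chromosome 7, 45457944 to 45459884), the light chain, which helps the iron core to form, had 674, 617 and 540 CPM in wt and 691, 781 and 812 CPM in hnRNP L deficient libraries. The hnRNP L deficient libraries were all above the wt libraries, though replicate 1 was only just above wt replicate 1. The level was 24.7% higher (95% interval 4.12% to 49.4%), a log2 fold change of 0.32 with SE 0.110. The unadjusted p was 0.023 and the adjusted p 0.081 (edgeR), so that Ftl1 did not pass over all genes tested. It passed with DESeq2 (adjusted p = 0.032), with limma-voom (0.0053) and with edgeR without wt replicate 1 (0.032), while its adjusted p over all alternatives ranged from 0.0053 to 0.25. Both ferritin genes have pseudogene copies of near-identical sequence, which makes their levels less certain than those of the other genes. Of the deposited count total of a library, between 39.8% and 44.7% was in the class of non-unique alignments, not assigned to genes. How much of that class came from ferritin was not measured.

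Aco1 (ENSMUSG00000028405, chromosome 4, 40143081 to 40198338), which is a cytosolic aconitase with an iron-sulfur cluster and an iron regulatory protein without it, had 67.4, 61.4 and 89.2 CPM in wt. The hnRNP L deficient libraries had 64.9, 62.7 and 61.9 CPM, inside the wt range, and wt replicate 3 stood apart. The log2 fold change was -0.20 (SE 0.137, 95% interval -0.52 to 0.12, adjusted p = 0.32, edgeR) and was -0.03 without wt replicate 3. With limma-voom and sample weights it was -0.37 and passed (adjusted p = 0.016). Over all alternatives the adjusted p ranged from 0.016 to 0.83.

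Ireb2 (ENSMUSG00000032293, chromosome 9, 54863789 to 54912530), the second iron regulatory protein, which is degraded when iron is plentiful, had 189, 159 and 176 CPM in wt and 169, 172 and 165 CPM in hnRNP L deficient libraries. It had the narrowest interval of the 10 genes. Its log2 fold change was -0.05 (SE 0.083, 95% interval -0.25 to 0.15, adjusted p = 0.70, edgeR), which leaves room for a change of -15.6% to 10.6%.

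**Figure D2:**
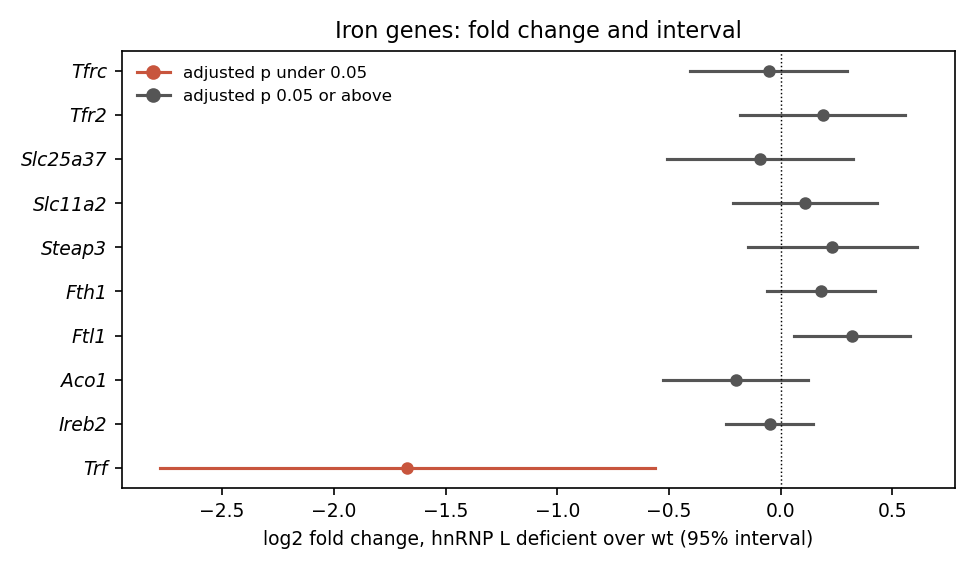
Log2 fold change of each iron gene, hnRNP L deficient over wt (x axis), with its 95% interval. The interval of Trf reaches from -2.78 to -0.56 and that of Ftl1 from 0.06 to 0.58, and the other 8 intervals include 0.

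Since Tfrc and ferritin mRNAs carry the hairpins at opposite ends, their ratio within each library was compared. Tfrc CPM over the sum of Fth1 and Ftl1 CPM was 0.781, 0.654 and 0.592 in wt and 0.550, 0.593 and 0.526 in hnRNP L deficient libraries. The groups met at wt replicate 3 and hnRNP L deficient replicate 2. The difference of the mean log2 ratios was -0.27 (wt SD 0.203, hnRNP L deficient SD 0.0867, n = 3 each), with a two-sided p = 0.2 in an exact permutation test, where 0.1 is the smallest p that 3 libraries against 3 allow. With Ftl1 alone as the divisor the difference was -0.36 (p = 0.1, exact permutation test) and with Fth1 alone -0.22 (p = 0.4, exact permutation test). The ratio of Fth1 to Ftl1, the composition of the ferritin mRNA pool, was 1.68, 1.54 and 2.17 in wt and 1.69, 1.63 and 1.54 in hnRNP L deficient libraries (difference -0.14 on the log2 scale, p = 0.7, exact permutation test). The values concern mRNA levels, and the translation that the ferritin hairpins control was not measured.

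Trf (ENSMUSG00000032554, chromosome 9, 103204001 to 103230444, minus strand), the gene of transferrin, was lower in hnRNP L deficient cells. It had 4.45, 7.24 and 8.53 CPM in wt, from 247, 434 and 620 reads. The hnRNP L deficient libraries had 0.854, 2.75 and 2.73 CPM, from 55, 180 and 204 reads. All 3 hnRNP L deficient libraries were below all wt libraries, with replicate 1 the lowest. The level was 3.19-fold lower (95% interval 1.48 to 6.87), a log2 fold change of -1.67 with SE 0.471 (adjusted p = 0.0486, edgeR). The direction was kept in every alternative, but the adjusted p was close to the threshold and ranged from 0.00071 to 0.13, and 6 of 13 alternatives passed. It was 0.057 without wt replicate 2, 0.13 without wt replicate 3, and 0.094, 0.11 and 0.13 without hnRNP L deficient replicates 1, 2 and 3. Over all genes the number of calls went from 2759 to 5 without wt replicate 3 and to between 7 and 17 without an hnRNP L deficient library, whereas it rose to 4791 without wt replicate 1 and to 3527 without wt replicate 2.

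Markers of hepatocytes, the cells that make transferrin, moved with Trf. The summed level of the 13 markers was between 126 and 270 CPM in wt and between 27.1 and 84.0 CPM in hnRNP L deficient libraries. All 13 were lower without overlap, where 45.5% of all tested genes were without overlap in either direction, and 1 of them, Ttr (transthyretin), passed the test (adjusted p = 0.049, edgeR), where 9.85% of all tested genes were called lower. Alb, the gene of albumin, had 70.7, 46.2 and 107 CPM in wt and 9.32, 31.4 and 26.2 CPM in hnRNP L deficient libraries (adjusted p = 0.073, edgeR). In hnRNP L deficient replicate 1, the library with the least Trf, 12 of 13 markers had their lowest value, and in wt replicate 3, the library with the most Trf, 11 of 13 had their highest. As a percentage of the wt mean, Trf was at 66.0, 107 and 127 in wt and at 12.7, 40.9 and 40.6 in hnRNP L deficient libraries, where the median of the markers was 94.6, 64.0 and 132 in wt and 12.4, 43.5 and 45.1. In wt replicate 2, however, Trf was higher than in wt replicate 1 while the median of the markers was lower. None of the 13 markers was at 0 in any library. The part of hepatocyte RNA in the difference of Trf was not tested.

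**Figure D3:**
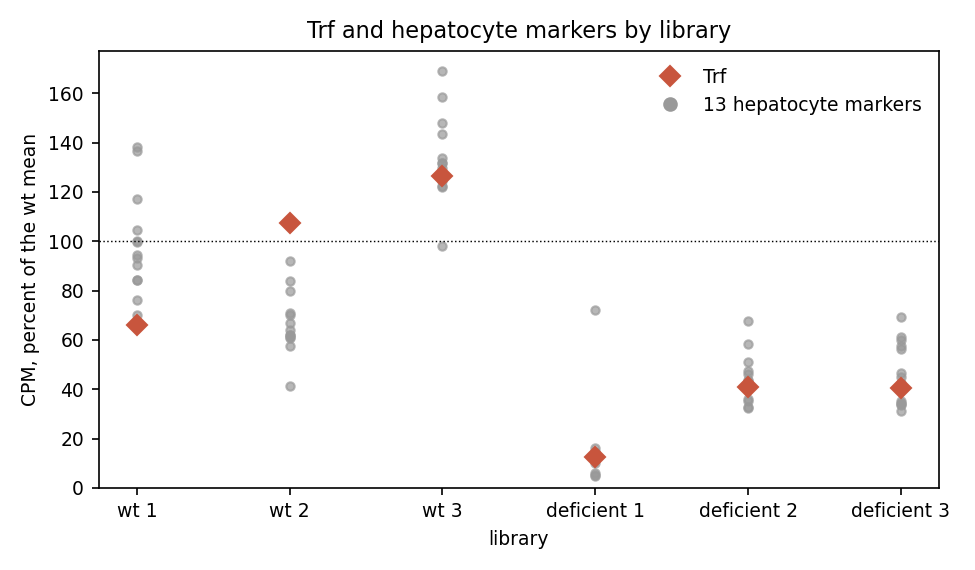
CPM of Trf (red diamonds) and of 13 hepatocyte markers (grey points) in each library, as a percentage of the mean of the 3 wt libraries. Trf stands at 12.7 and most markers stand near it in hnRNP L deficient replicate 1, and Trf stands at 40.9 and 40.6 in the other 2 hnRNP L deficient libraries.

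The exon bin counts were used to see whether parts of the iron genes changed relative to the rest of the same gene. Of 176996 bins tested over all genes, 0.0288% passed. In the units of the iron genes 10 bins passed, all of them in the unit that holds Trf. No bin passed in the other 9 genes, with diffSpliceDGE or with limma's diffSplice. With diffSpliceDGE, 2 of their bins had an unadjusted p under 0.05, a measure for which the share of all bins was not computed. The bin with the smallest p among these was bin 2 of Steap3, where usage in hnRNP L deficient cells was lower by a log2 difference of -1.12 (adjusted p = 0.27, edgeR's diffSpliceDGE). It held 535, 338 and 606 reads in wt replicates 1 to 3 and 298 and 271 reads in hnRNP L deficient replicates 2 and 3, which were below all of the wt libraries. Without wt replicate 2 this bin passed. In Ftl1, bin 1 had an unadjusted p of 0.022 on at most 49 reads in a library, and in Tfrc, bin 21 had 0.051. In the remaining 6 genes the smallest unadjusted p was 0.20 or above.

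The unit of Trf is not Trf alone. The counting merged it with its neighbor Srprb, a subunit of the signal recognition particle receptor, and with Gm20425, a gene model that reads through both. All 3 lie on the minus strand, Srprb at 103188032 to 103202137 and Gm20425 at 103190208 to 103230307. Of the 50 bins, 41 were tested. The bins fell into 2 stretches, which were delimited after their values were seen and are given as a description. In bins 1 to 10 usage was higher in hnRNP L deficient libraries, by 0.16 to 1.23 on the log2 scale, and none passed. In bins 14 to 46 usage was lower in all 31 tested bins, by -2.30 to -0.79, and 10 passed. Bins 11 to 13 and 47 to 50 were nearly empty and were not tested.

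Levels in the same stretches followed the genes. Bins 14 to 46 summed to 37.9, 66.1 and 73.2 CPM in wt and to 17.2 and 15.9 CPM in hnRNP L deficient libraries (replicates 2 and 3). Bins 1 to 10 summed to 56.7, 56.5 and 51.7 CPM in wt and to 78.7 and 79.1 CPM in hnRNP L deficient libraries. At the gene level Srprb had 39.4, 40.6 and 36.4 CPM in wt and 61.9, 56.8 and 58.7 CPM in hnRNP L deficient libraries, a log2 fold change of 0.61 (adjusted p = 0.012, edgeR), and Gm20425 had 0 reads in all 6. Usage in this unit is measured against all of its bins, so the opposite changes of Srprb and Trf levels and a change of splicing within Trf cannot be told apart from the usage values of the unit. Within bins 14 to 46, all 31 tested bins had lower CPM in both hnRNP L deficient libraries than in every wt library. The fall was not uniform, with log2 ratios of the hnRNP L deficient mean to the wt mean from -2.56 to -1.05. All 3 genes of the unit are in the study's own list of genes with changed exon usage, which was made on these samples, so the calls here are not independent of that list.

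**Figure D4:**
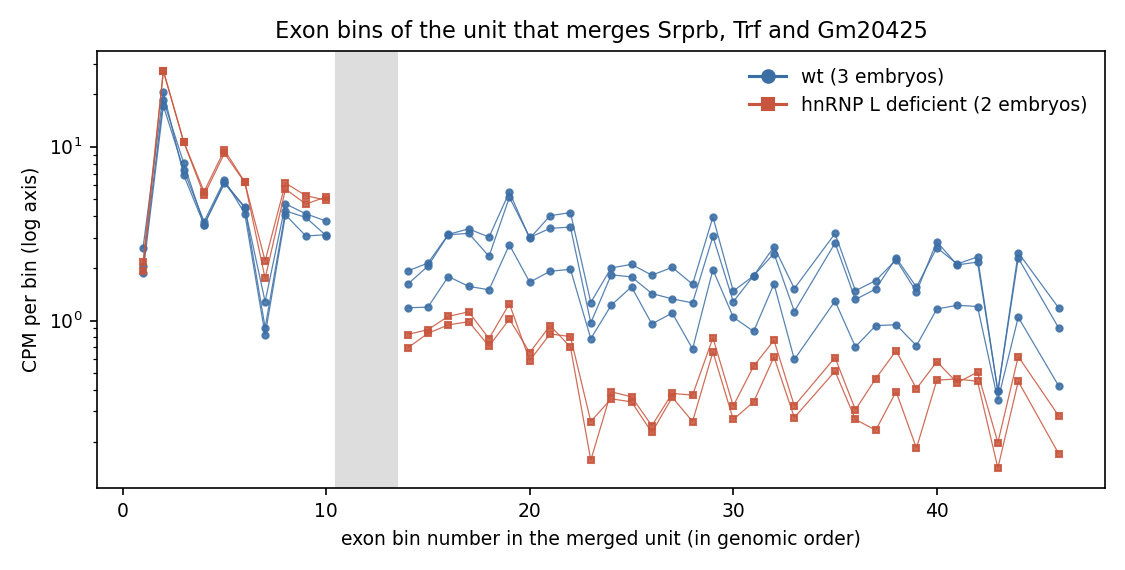
CPM of each tested exon bin (log axis) along the unit that merges Srprb, Trf and Gm20425, numbered in genomic order, in 3 wt (blue) and 2 hnRNP L deficient (red) libraries. The grey band marks bins 11 to 13, which were not tested. The hnRNP L deficient libraries lie below every wt library in all 31 tested bins from 14 to 46.

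The overlap also bears on the gene count of Trf. In GENCODE M21, 63.5% of the exonic bases of Trf are shared with another gene of the unit, as are 8.13% of those of Ftl1, while the other 8 genes share none. Bins 14 to 46 held 15.4, 15.6 and 16.0 reads per read counted on the Trf gene in wt. In hnRNP L deficient replicates 2 and 3 they held 11.6 and 10.95, so the share of reads counted differed between the genotypes. The units of the other 9 genes held between 1.10 and 2.14 bin reads per gene read. The gene count of Trf is thus a small part of the reads on its exons, and its place at the bottom of the order by level rests on that count. The direction of the Trf difference was the same in the gene counts and in the bins, but its size was not. Over the tested bins from 14 to 46, the median log2 ratio of hnRNP L deficient replicates 2 and 3 to wt was -1.99. From gene counts without hnRNP L deficient replicate 1 the log2 fold change was -1.29.

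Other genes of iron handling were taken from 5 lists, transferrin cycle and uptake, storage and release, mitochondrial iron and iron-sulfur clusters, systemic iron hormones, and mRNAs known for an iron-responsive element. Of 69 genes besides the 10, 68 were in the gene counts and 56 were tested. The other 12 did not pass the filter and had at most 0.275 CPM in any library. Of the 56, 10 passed (17.9%), 7 higher and 3 lower, against 19.2% of all tested genes. DESeq2 called 8 higher and 7 lower, against 27% of all genes it tested. For limma-voom it was 12 and 7, against 37.2%. Without wt replicate 1, edgeR called 32.4% of all genes it tested, and 9 higher and 7 lower among the 56. Their median log2 fold change was 0.05. In each of these 10 genes the call was lost without wt replicate 3 and without each of the hnRNP L deficient libraries, with the direction kept, and that of Smad6 also without wt replicate 2.

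In the list of uptake, 1 of 13 tested genes was higher and 0 were lower. Of all tested genes, 9.32% were called higher and 9.85% lower. In this list 4 genes had an unadjusted p under 0.05, as did at least 19.2% of all tested genes. DESeq2 called 1 higher and 2 lower, against 27% of all genes it tested, and limma-voom 2 and 2, against 37.2%. Slc39a14, a transporter of iron that is not bound to transferrin, rose from 13.2, 10.1 and 14.4 CPM in wt to 20.9, 19.8 and 20.7 CPM (log2 fold change 0.70, SE 0.149, adjusted p = 0.025, edgeR). Picalm, which assists the endocytosis of the transferrin receptor, had a log2 fold change of 0.07 (95% interval -0.23 to 0.36), and Vps35, of the complex that recycles it, one of 0.10 (-0.12 to 0.32). Neither passed. Hfe and Lrp1, named after their values were seen, had log2 fold changes of -2.55 and -2.31 and did not pass (adjusted p = 0.061 and 0.060, edgeR), and both were highest in wt replicate 2.

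In the list of storage and release, 2 of 11 tested genes were higher (9.32% of all tested genes) and 1 was lower (9.85%). DESeq2 called 3 and 2, against 27% of all genes it tested, and limma-voom 4 and 2, against 37.2%. Pcbp2, a chaperone that delivers iron to ferritin and also an RNA-binding protein, rose from 703, 634 and 686 CPM to 845, 814 and 816 CPM (0.29, SE 0.0772, adjusted p = 0.041, edgeR). Its paralog Pcbp1 had a log2 fold change of 0.32 and did not pass (adjusted p = 0.060, edgeR). Flvcr1, known as an exporter of heme, rose from 69.7, 43.7 and 56.6 CPM to 91.9, 83.3 and 90.6 CPM (0.65, SE 0.160, adjusted p = 0.035, edgeR). Ncoa4, the receptor that leads ferritin to its breakdown in lysosomes, fell from 58.0, 70.1 and 52.3 CPM to 45.1, 42.0 and 41.2 CPM (-0.49, SE 0.116, adjusted p = 0.031, edgeR).

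In the list of mitochondria, 3 of 19 tested genes were higher and 1 was lower, where 9.32% of all tested genes were called higher and 9.85% lower. Iscu, the scaffold on which iron-sulfur clusters are built, rose from 31.3, 31.5 and 27.95 CPM to 44.0, 41.1 and 43.8 CPM (0.51, SE 0.0839, adjusted p = 0.016, edgeR). Fdx2, the ferredoxin that supplies electrons to this assembly, rose from 32.8, 35.4 and 32.5 CPM to 48.4, 46.9 and 46.2 CPM (0.49, SE 0.0741, adjusted p = 0.014, edgeR). Hspa9, the chaperone that passes the clusters on, rose from 1119, 837 and 909 CPM to 1392, 1307 and 1330 CPM (0.49, SE 0.118, adjusted p = 0.033, edgeR). Of the 19, 15 did not pass in edgeR. DESeq2 called 3 higher and 1 lower, against 27% of all genes it tested, and limma-voom 4 and 1, against 37.2%. Abcb10, a transporter of the inner mitochondrial membrane known to stabilize Slc25a37 protein, fell from 218, 216 and 246 CPM to 137, 166 and 138 CPM (-0.63, SE 0.102, adjusted p = 0.015, edgeR). Tmem14c, a carrier of heme precursors, had a log2 fold change of -0.10 (95% interval -0.28 to 0.09) and did not pass.

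In the list of systemic hormones, 1 of 7 tested genes was higher (9.32% of all tested genes) and 1 was lower (9.85%). DESeq2 called 1 and 1, against 27% of all genes it tested, and limma-voom 2 and 1, against 37.2%. Erfe, the gene of erythroferrone, by which erythroblasts lower hepcidin in the liver, had 5.89, 2.47 and 3.21 CPM in wt and 14.2, 17.1 and 16.2 CPM in hnRNP L deficient libraries. It was 4.12-fold higher, with a log2 fold change of 2.04 (SE 0.321, adjusted p = 0.015, edgeR). Smad6, an inhibitor of BMP signaling, fell from 1.53, 3.35 and 2.04 CPM to 0.808, 1.12 and 0.750 CPM (-1.37, SE 0.362, adjusted p = 0.041, edgeR). Id1, a target of the same signaling, had a log2 fold change of -0.16 (95% interval -0.91 to 0.59) and did not pass.

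The mRNAs known for an iron-responsive element include Fth1, Ftl1, Tfrc and Slc11a2 of the genes above. Of these 11 mRNAs, 0 passed in edgeR in either direction, against 19.2% of all tested genes. The median log2 fold change of the 11 was 0.11. In edgeR 3 of the 11, Ftl1 among these, had an unadjusted p under 0.05, as did at least 19.2% of all tested genes. DESeq2 and limma-voom each called 1 higher and 1 lower, against 27% and 37.2% of all genes they tested.

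**Figure D5:**
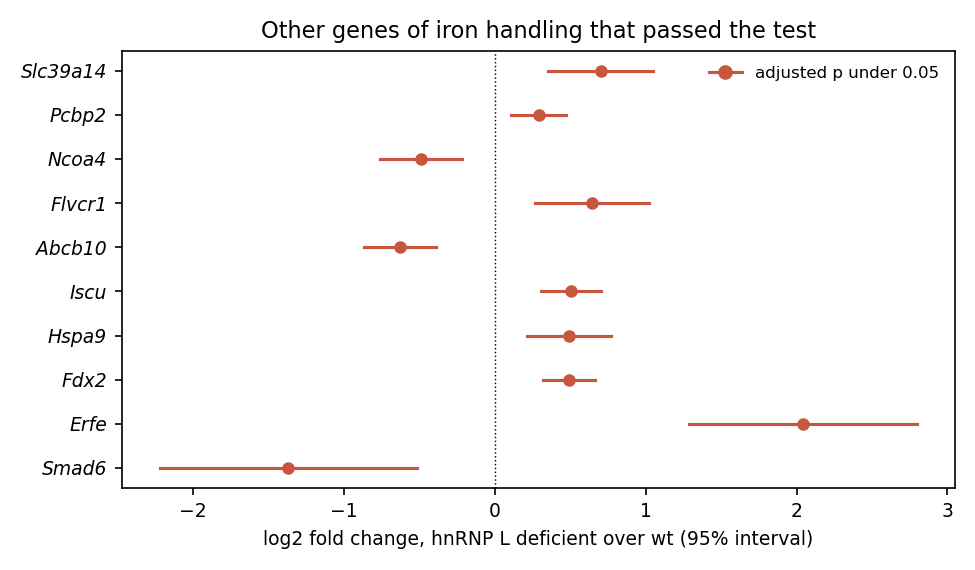
Log2 fold change, hnRNP L deficient over wt (x axis), with 95% intervals, of the 10 other genes of iron handling that passed the test. Erfe is the highest at 2.04 and Smad6 the lowest at -1.37, and the 7 genes that rose lie to the right of 0.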

How the data were processed

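Stranded mRNA libraries of single embryos were sequenced as paired ends. Per the labels and the study's methods, reads were aligned to GRCm38 with TopHat2 2.0.10, and the authors deposited gene counts from HTSeq and exon bin counts from the DEXSeq script, both without normalization. The annotation release, the strand setting and the options for reads on several genes are not given in the sources used here.

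For the deposited gene counts edgeR 4.0.16 was used under R 4.3.3 (TMM, default filter, quasi-likelihood test with robust estimation, Benjamini-Hochberg adjustment over 14396 genes, threshold 0.05). Standard errors were derived from the fold change and its F statistic. For exon bins diffSpliceDGE was run where the mean reached 10 reads. Lengths are merged exons of coding transcripts in the basic GENCODE M21 annotation, which was also used for positions. Fdx2 was matched by its older symbol. Scripts were tested on simulated data. The genes named from each list were those that passed and otherwise at most the 2 with the highest mean CPM. The genes and lists were chosen with earlier results of these data known. Replicates are separate embryos. Alternatives were DESeq2 1.42.0, limma-voom 3.58.1, other factors, filters and thresholds, and leaving out each library. The values of 1 listed gene are not reported here.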

Additional observations from a re-analysis of the deposited data

How the results depend on the processing

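No paired analysis was possible because the replicate numbers were given in accession order, and the embryo numbers of the titles share a first part between the genotypes for 1 pair only (replicate 1 of each) and within a genotype for hnRNP L deficient replicates 2 and 3. What that part stands for is not given in the sources used here. In both of the latter Trf was higher than in hnRNP L deficient replicate 1, and a batch of this kind could not be told apart from single embryos. The number of iron genes that passed was 1, and it was 2 with DESeq2, 3 with limma-voom, 0 without a filter on low counts, 0 without robust estimation and between 0 and 2 with a library left out (2 without wt replicate 1, 0 in the other fits). For the other genes of iron handling it was 10, and it was 19 with limma-voom, 2 when a change of more than 2-fold was required and between 0 and 16 with a library left out. The number of exon bins was 10, and it was 30 by an unadjusted p under 0.01 with more than 2-fold change, 1 of them outside the Trf unit, and between 0 and 18 with a library left out. Over all genes the calls numbered 2759 with edgeR, 4150 with DESeq2, 5350 with limma-voom and 5 without wt replicate 3, and the cause was not tested. The sign turned with limma-voom for Tfrc (0.0535), Slc25a37 (0.025) and Slc11a2 (-0.0017), which did not pass in any alternative. With a library left out, the log2 fold change ranged from -0.14 to 0.13 for Tfrc, from -0.24 to 0.10 for Slc25a37, from -0.0369 to 0.19 for Slc11a2 and from -0.11 to 0.0172 for Ireb2. The ratio of Tfrc to ferritin kept its direction, with a log2 difference between -0.36 and -0.16. The fewest reads behind a value of the iron genes were 55, for Trf in hnRNP L deficient replicate 1.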
